A study of Rattus norvegicus and Bos taurus with 12 samples.

Results

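The 38 genes examined here comprise the glycolytic pathway from glucose uptake to lactate, the kinases that regulate entry of pyruvate into mitochondria, the subunits and prolyl hydroxylases of the hypoxia-inducible factor (HIF), and further HIF target genes. Their rows were selected by gene symbol from 2 deposited RNA sequencing tables, 1 from bovine right ventricular cardiac fibroblasts (Cfib) and 1 from adult rat ventricular myocytes (ARVM). At least 1 of the tables listed 37 of the 38 genes. The Cfib table held 15 of them among its 2115 genes and the ARVM table held 33 among its 7052, with 11 genes in common. Only Egln1, a HIF prolyl hydroxylase, was in neither. Both tables contain genes that the authors had selected for a difference between groups, so absence from a table gives no level. The 3 values of each group did not overlap for 100% of the listed genes of either table, so that groups standing apart is a property of the tables and not particular to any gene below.

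The 12 libraries formed 4 groups of 3. Cfib were grown from the right ventricular free wall of control calves (CO), kept at the ambient altitude of Denver, or from neonatal calves with pulmonary hypertension (PH) after hypobaric hypoxia. They were cultured at low passage under standard conditions and held in serum-free medium before harvest, so neither group of Cfib was in hypoxia at harvest as far as the methods state. ARVM came from healthy adult Sprague Dawley rats and were either freshly isolated or kept for 7 days in medium conditioned by PH Cfib (PH-CM). Labels of all 12 libraries also describe the treatment as cow serum, from low altitude for CO Cfib and freshly isolated ARVM and from high altitude for the others. The paper instead describes PH-CM and untreated, freshly isolated ARVM, and this conflict was not settled. By the paper's account, time in culture, plating and PH-CM differed together between the ARVM groups and cannot be told apart. Whether the ARVM libraries came from separate animals was not stated, so p-values measure the spread between these libraries. Reads recovered for the listed ARVM genes ranged from 12122463 to 18842171 per library, and the depth of the Cfib libraries is unknown.

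Glycolysis splits glucose into pyruvate, and lactate dehydrogenase interconverts pyruvate and lactate. Several steps are catalysed by isoenzymes from separate genes: adult heart and skeletal muscle use Pgam2, Eno3 and Pfkm, while most other cells use Pgam1, Eno1, Pfkl and Pfkp, and Eno2 and Aldoc are known from neurons. Ldhb is the heart form of lactate dehydrogenase and Ldha the form of glycolytic tissues. Pyruvate dehydrogenase kinases inhibit the enzyme that passes pyruvate to the tricarboxylic acid cycle. HIF is a dimer of an oxygen-regulated alpha subunit (Hif1a or Epas1) and Arnt. Prolyl hydroxylases of the Egln family mark the alpha subunits for degradation when oxygen is present, and HIF bound to its DNA core raises transcription of many glycolytic genes. The adult heart relies mainly on oxidation of fatty acids, and a shift towards glycolysis is known from the fetal and the stressed heart.

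Upstream sequences are shown for 5 rat genes with large changes in their isoenzyme families, Pgam2 with Pgam1, Eno3 with Eno2, and Aldoc, to show what the HIF core looks like where it is present and where it is not. They were chosen after the changes were known and do not stand for all genes that rose or fell. They are the 250 bases before each RefSeq gene start in the GRCr8 assembly, 5′ to 3′ on the strand of the gene. The searched cores were ACGTG and GCGTG on both strands, and capitals mark each match; a match on the opposite strand reads CACGT or CACGC. Pgam2 lies downstream of chr14:84897875-84898124 (minus strand), Pgam1 of chr1:250672902-250673151 (plus strand), Eno3 of chr10:55868936-55869185 (plus strand), Eno2 of chr4:159267221-159267470 (minus strand) and Aldoc of chr10:63715294-63715543 (plus strand).
Pgam2: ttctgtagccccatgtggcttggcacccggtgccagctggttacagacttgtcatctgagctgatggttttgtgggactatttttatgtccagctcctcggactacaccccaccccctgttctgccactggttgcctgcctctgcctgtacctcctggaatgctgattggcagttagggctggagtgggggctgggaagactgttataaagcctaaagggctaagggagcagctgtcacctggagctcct
Pgam1: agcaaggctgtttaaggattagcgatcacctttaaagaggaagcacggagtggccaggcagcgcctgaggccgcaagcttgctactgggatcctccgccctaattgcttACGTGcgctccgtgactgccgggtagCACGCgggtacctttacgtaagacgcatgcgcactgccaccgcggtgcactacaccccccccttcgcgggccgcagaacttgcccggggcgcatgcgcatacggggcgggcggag
Eno3: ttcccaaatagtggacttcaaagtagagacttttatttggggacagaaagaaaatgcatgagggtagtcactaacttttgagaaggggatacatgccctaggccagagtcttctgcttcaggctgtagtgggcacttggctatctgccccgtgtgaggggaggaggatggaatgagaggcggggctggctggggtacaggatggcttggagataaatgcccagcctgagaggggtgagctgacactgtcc
Eno2: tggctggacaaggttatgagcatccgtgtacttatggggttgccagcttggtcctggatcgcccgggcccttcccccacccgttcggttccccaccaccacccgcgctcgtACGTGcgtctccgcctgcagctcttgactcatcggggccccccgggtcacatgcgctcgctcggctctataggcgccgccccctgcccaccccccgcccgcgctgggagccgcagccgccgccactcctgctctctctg
Aldoc: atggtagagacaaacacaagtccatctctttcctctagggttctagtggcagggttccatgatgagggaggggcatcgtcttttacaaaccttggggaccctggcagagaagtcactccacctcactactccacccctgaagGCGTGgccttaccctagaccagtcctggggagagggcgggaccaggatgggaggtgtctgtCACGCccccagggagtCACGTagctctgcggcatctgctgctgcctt

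Pgam2 and Eno3 held no core in this window. Pgam1 held 2, starting 141 and 115 bases before the gene start, Eno2 held 1 at 139 bases, and Aldoc held 3 at 108, 47 and 31 bases. Over all 33469 rat promoter windows, 36.7% held at least 1 core of either kind, 16.6% ACGTG and 25.9% GCGTG. RefSeq windows were matched for 34 of the 38 genes, in 38 windows since some genes have several starts, and the genes without an entry were Slc2a3, Pgk1, Bnip3l and Ndrg1. Of these windows, 23 (60.5%) held a core of either kind, 15 (39.5%) ACGTG and 16 (42.1%) GCGTG. The letters CACGTG, which contain ACGTG and are also the E-box bound by other factors, were in 6 windows (15.8%), against 5.59% of all. Among genes of the ARVM table a core was in 9 of 13 windows of genes with higher values (69.2%) and 10 of 19 of genes with lower values (52.6%). The lower Pfkm, Ldhb, Pdk1, Pdk2, Pfkfb3 and Gapdh held one, and the higher Adm, Stc2, Pfkfb4 and Pkm held none, so that a core did not go with 1 direction. Base composition was not matched between these windows and all windows, and a match is a run of letters, not a bound site.

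To find how these genes differed in ARVM after PH-CM, each gene was compared on the log2(value + 1) scale with limma across all 7052 genes. The deposited ARVM values are normalized counts, without correction for gene length, so levels are compared between groups for the same gene only. PH-CM ARVM had higher values for 15 of the 33 listed genes and lower values for 18 at an adjusted p under 0.05. Among all listed genes 53.9% were called higher and 43.7% lower, so the number of calls is close to that of the table as a whole. The median log2 fold change of the 33 genes was −0.31, against 0.37 for all listed genes. Direction differed by role: all 5 muscle or heart isoenzymes, the 3 pyruvate dehydrogenase kinases among the 38 genes and all 3 listed HIF subunits were lower, whereas all 6 other HIF targets were higher. Of the 18 listed glycolytic enzymes, 7 were higher and 11 lower.

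**Figure D1:**
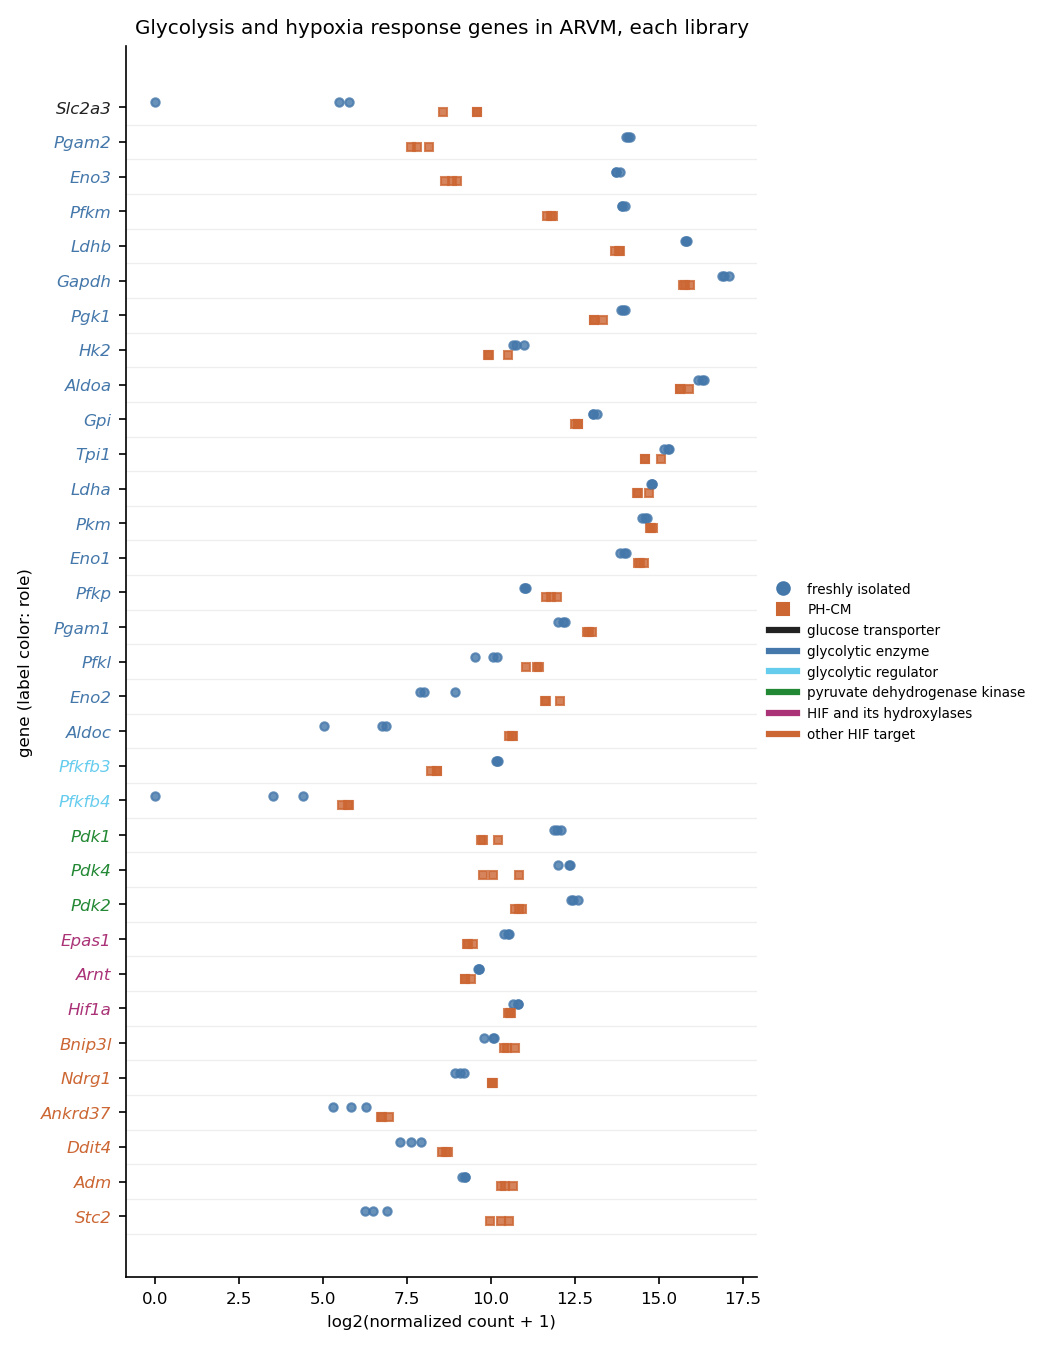
Level of each of the 33 listed genes in every ARVM library, as log2(normalized count + 1) on the horizontal axis; circles are the 3 freshly isolated and squares the 3 PH-CM libraries, and label color gives the role. Pgam2 and Eno3 lie far to the left in PH-CM, Aldoc, Eno2, Stc2 and Slc2a3 far to the right, and freshly isolated ARVM con4 is at 0 for Slc2a3 and Pfkfb4.

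Phosphoglycerate mutase gave the largest fall. Pgam2, the muscle isoenzyme, had 16719.9, 17368.5 and 18047 normalized counts in freshly isolated ARVM con4, con5 and con6, and 287, 223 and 195 in PH-CM ARVM ha2, ha209 and ha211. Libraries of the 2 groups were far apart, and the mean was 73.9-fold lower in PH-CM (log2 fold change −6.22, SE 0.13, adjusted p = 7.34e-08 from limma). Pgam1, the brain and widely expressed isoenzyme, had 4075, 4513 and 4698 in the freshly isolated libraries and 7702, 8203 and 7403 in PH-CM. Its mean was 1.75-fold higher in PH-CM (log2 fold change 0.81, SE 0.07). The log2 ratio of Pgam2 to Pgam1 therefore went from 1.97 ± 0.05 (SD, n = 3) to −5.06 ± 0.28, a difference of −7.03 or 131-fold. The rise of Pgam1 did not make up for the fall of Pgam2. Their summed normalized count went from 21807 ± 977 to 8005 ± 415 (SD, n = 3), a 2.72-fold fall.

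In enolase, with 3 genes, the muscle gene was again lower in PH-CM and the others higher. Eno3, the muscle form, had 14705, 13586 and 13553 normalized counts in freshly isolated ARVM and 504, 459 and 397 in PH-CM, a 30.8-fold fall (log2 fold change −4.95, SE 0.09, adjusted p = 4.37e-08 from limma). Eno1, the widely expressed form, had 16704, 15959 and 14802 against 21379, 23974 and 22421 in PH-CM (log2 fold change 0.51, SE 0.08). Eno2, the neuronal form, had 487, 255 and 237 in freshly isolated ARVM, where con4 was the highest, and 3181, 4265 and 3101 in PH-CM. The mean of Eno2 was 10.8-fold higher in PH-CM (log2 fold change 3.49, SE 0.27). Summed over the 3 genes, normalized counts were 30096 ± 1672 and 26560 ± 1901 (SD, n = 3; p = 0.2, exact permutation test, two-sided), and the groups overlapped in this sum.

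Phosphofructokinase commits sugar phosphates to glycolysis. Pfkm, the muscle form, had 15414, 15447 and 16427 normalized counts in freshly isolated ARVM and 3661, 3515 and 3282 in PH-CM, a 4.52-fold fall. Pfkl, the liver form, had 744, 1064 and 1168 against 2093, 2654 and 2753. Pfkp, the platelet form, had 2007, 2092 and 2078 against 3523, 3974 and 3160. Log2 fold changes of the 3 genes were −2.18 (SE 0.06), 1.35 (SE 0.18) and 0.78 (SE 0.08), in this order. The summed count of the family fell by 1.97-fold.

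In aldolase the brain form rose while the main form fell, and in lactate dehydrogenase both forms fell, the heart form by more. Aldoa, the muscle and widely expressed aldolase, had 73112, 80558 and 83875 normalized counts in freshly isolated ARVM and 50319, 61594 and 50619.6 in PH-CM (log2 fold change −0.55, SE 0.12). Aldoc, the brain form, had 31.7, 118 and 107 against 1600.2, 1490 and 1591, an 18.2-fold rise (log2 fold change 4.38, SE 0.45). It was lowest in freshly isolated ARVM con4, where it rested on 20 reads, and without that library its log2 fold change was 3.78. Ldhb, the heart form, had 55784, 56981 and 58356 against 14417, 14817 and 13243 in PH-CM, a 4.03-fold fall. Ldha had 28344, 28198 and 28124 against 21129, 26673 and 20855, so that PH-CM ARVM ha209 came close to the freshly isolated libraries. Its log2 fold change of −0.31 (SE 0.10, adjusted p = 0.0192 from limma) was past the threshold, but lost it without freshly isolated ARVM con5, PH-CM ARVM ha2 or PH-CM ARVM ha211 (adjusted p = 0.0509, 0.0733 and 0.0694).

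Glycolytic enzymes with a single or main gene mostly had lower values in PH-CM. Gapdh, which oxidizes glyceraldehyde 3-phosphate, had 138093, 119519 and 126844 normalized counts in freshly isolated ARVM and 55804, 62817 and 53735 in PH-CM, a 2.23-fold fall (log2 fold change −1.16, SE 0.12). Pgk1, which makes ATP in the next step, fell from a mean of 15641 to 9157 and Hk2, the muscle hexokinase, from 1786 to 1138. Gpi and Tpi1, both isomerases, fell from 8653 to 6043 and from 38801 to 27683.5. Pkm, pyruvate kinase, was the exception with 24513 ± 1179 and 27946 ± 930 (SD, n = 3), 0.19 on the log2 scale (adjusted p = 0.0315 from limma). That call was lost without any 1 of freshly isolated ARVM con4 or con5 or PH-CM ARVM ha209 or ha211 (adjusted p from 0.0542 to 0.085) and with edgeR (0.0592). Over the 18 enzymes the summed normalized count went from 452793 ± 6422 to 266305 ± 25504, a 1.70-fold fall (p = 0.1, exact permutation test, two-sided, the smallest that 3 against 3 libraries allow). Most of this sum came from genes that fell, and groups do not overlap for any listed gene, so selection largely fixed this p. The sum adds genes of different length without correction. Gapdh and several other enzymes have near-identical processed copies in mammalian genomes, and how reads shared with them were counted was not given in the sources used here, so their values are uncertain to that extent.

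**Figure D2:**
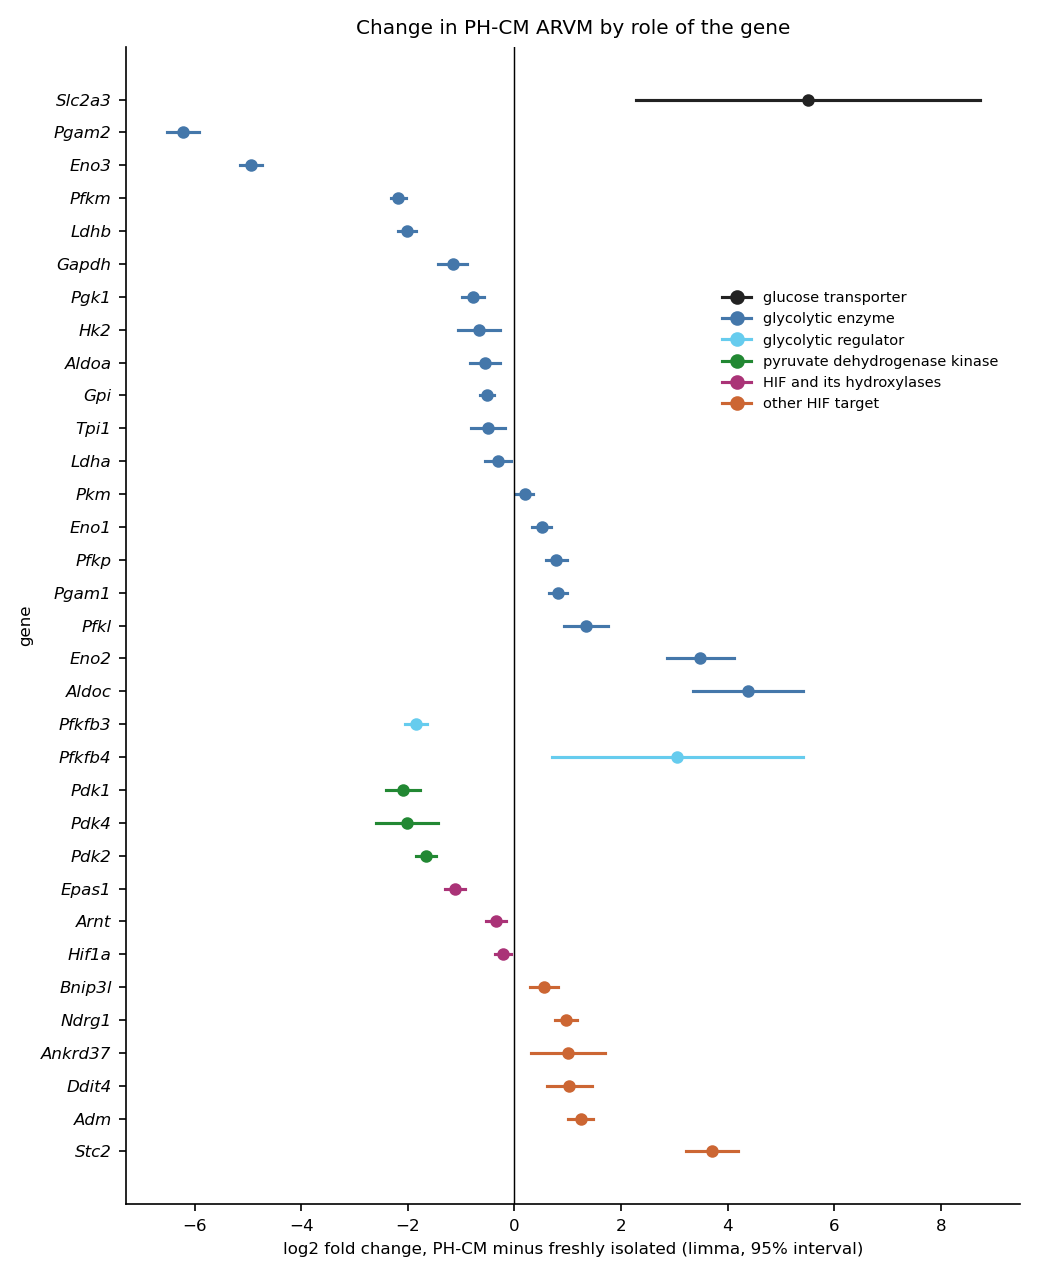
Log2 fold change of each listed gene in PH-CM against freshly isolated ARVM (horizontal axis, limma estimate with its 95% interval), grouped and colored by role. The 3 pyruvate dehydrogenase kinases shown and the HIF subunits lie left of 0 and the 6 other HIF targets right of it, while glycolytic enzymes run from −6.22 for Pgam2 to 4.38 for Aldoc.

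Log2 ratios within a library remove both library scaling and, in the difference between groups, gene length. For 9 of 11 pairs of related genes in ARVM the difference had p = 0.1 (exact permutation test, two-sided, the smallest possible). After Benjamini-Hochberg adjustment over 11 pairs this was 0.122, which does not pass 0.05. Both genes of each pair come from a table of selected genes. Where the genes of a pair went opposite ways, that selection fixed the p in advance. After Pgam2 to Pgam1 the largest difference was for Eno3 to Eno1 at −5.46, followed by Aldoc to Aldoa at 4.93 and Pfkfb4 to Pfkfb3 at 4.90. The last rested on freshly isolated ARVM con4, which had no read of Pfkfb4, and was 3.57 without that library. Pfkl to Pfkm differed by 3.53, Eno2 to Eno1 by 2.98, Pfkp to Pfkm by 2.96, Ldhb to Ldha by −1.70 and Epas1 to Hif1a by −0.91. For phosphoglycerate mutase, enolase, phosphofructokinase and lactate dehydrogenase the ratios thus moved away from the muscle or heart gene. The pairs of pyruvate dehydrogenase kinases overlapped between groups: Pdk2 to Pdk1 differed by 0.43 (p = 0.3, exact permutation test) and Pdk4 to Pdk1 by 0.07 (p = 0.8, exact permutation test), and the sign of the latter depended on single libraries.

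**Figure D3:**
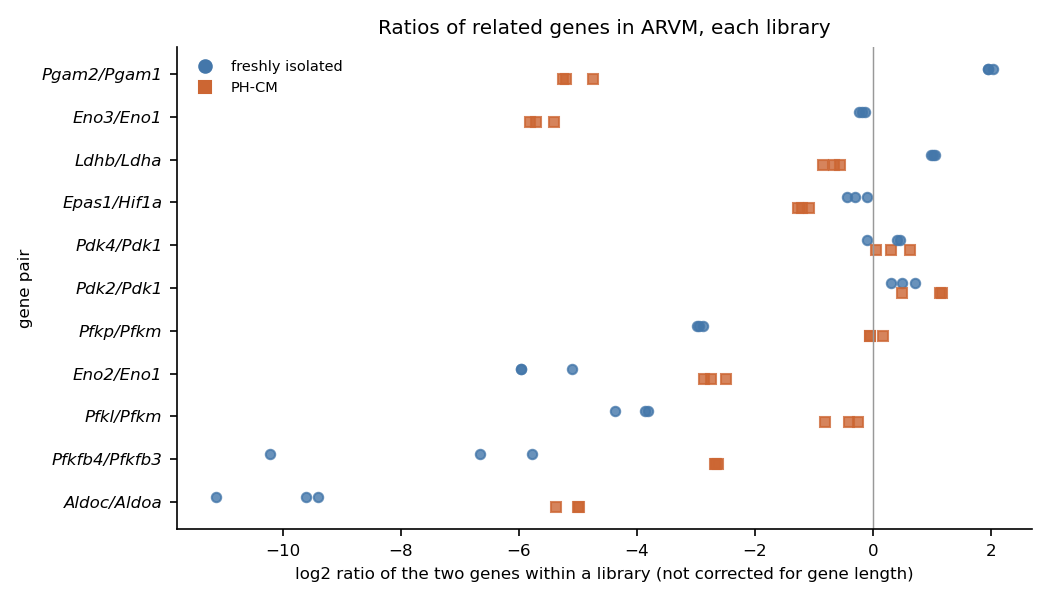
Log2 ratio of related genes in each ARVM library (horizontal axis), circles for freshly isolated and squares for PH-CM. Ratios of Pgam2 to Pgam1 lie near 2 in the freshly isolated libraries and near −5 in PH-CM, and the 2 pairs of pyruvate dehydrogenase kinases overlap between groups.

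Markers of cell types moved together with these genes. In this bulk RNA, fewer cells of a type and less RNA per cell cannot be told apart. Of 15 cardiomyocyte markers 14 were listed, 13 lower and 1 (Myh7) higher, and their summed normalized count was 1989790.0 to 2014790.0 in freshly isolated and 220970.0 to 274354 in PH-CM ARVM. Single markers fell by amounts from 1.58-fold for Pln to 97.1-fold for Mb, so that the falls of Pgam2 and Eno3 lay within the range of the markers, as did those of Pfkm and Ldhb. All 10 fibroblast markers were higher, with a sum of 1471 to 1988 before and 87102 to 129911 after PH-CM. The 9 listed of 10 leukocyte markers were higher too (244 to 381 and 7617 to 11640.2), as were 5 of 7 smooth muscle markers. The smooth muscle sum (65543 to 72472 and 81194 to 87951) was mostly Des in freshly isolated ARVM. Des and Rgs5 were the 2 lower ones, from 67582 to 45309 and from 804 to 309. Among the higher ones Tagln rose from 257 to 21540 and Acta2 from 293 to 10007.5. Of 8 endothelial markers 7 were lower, and all 4 listed erythroid markers were lower, with Hba1, Hbb and Hbb-b1 at 0 in every PH-CM library. Defining markers of the ARVM, such as Myh6 (329065 and 6909) and Tnnt2 (167134 and 32124), remained well above 0 in PH-CM, and the part of other cell types in the changes of glycolytic and hypoxia genes was not tested.

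Slc2a3, a high-affinity glucose transporter known from neurons and white blood cells, was the only one of the 2 glucose transporters examined that the ARVM table listed. It had 0, 53.6 and 43.4 normalized counts in freshly isolated ARVM and 772, 380 and 773 in PH-CM. PH-CM ARVM ha209 thus had the lowest level of the treated libraries, and it was also the lowest of them for the summed fibroblast and leukocyte markers. The log2 fold change was 5.51 (SE 1.39, adjusted p = 0.00587 from limma), and the means stood 19.9-fold apart. Freshly isolated ARVM con4 had no read of it, which allows up to 4.75 normalized counts at 3 reads, and without that library the log2 fold change was 3.63.

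The regulators of phosphofructokinase, which make and break down its activator fructose 2,6-bisphosphate, went in opposite directions. Pfkfb3 had 1182, 1172 and 1136 normalized counts in freshly isolated ARVM and 299, 337 and 338 in PH-CM, a 3.58-fold fall (log2 fold change −1.84, SE 0.09, adjusted p = 9.76e-07 from limma). Pfkfb4 had 0, 20.4 and 10.3 against 46.1, 52.6 and 54.2 (log2 fold change 3.06, SE 1.02, adjusted p = 0.0192 from limma). It was low throughout, at 61 to 64 reads per PH-CM library, and its log2 fold change was 1.74 without freshly isolated ARVM con4. The call was lost with a pseudocount of 0.1 (adjusted p = 0.0654) and without any 1 PH-CM library (0.0574 to 0.0591).

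Pdk1, Pdk2 and Pdk4 fell, whereas Pdk3, the further kinase of this family in the ARVM table and not among the 38 genes, rose (log2 fold change 2.20). Pdk1, itself a HIF target, had 4366, 3996 and 3781 normalized counts in freshly isolated ARVM and 861, 1189.7 and 834 in PH-CM, a log2 fold change of −2.09 (SE 0.14). Pdk2 had 5376, 5614 and 6200.3 against 1941, 1668 and 1835 (log2 fold change −1.66, SE 0.08). Pdk4, which is induced by fatty acids and fasting, had 4096, 5274 and 5167 against 1060.2, 1829.9 and 865 (log2 fold change −2.02, SE 0.25). PH-CM ARVM ha209 had the highest treated level of Pdk1 and Pdk4 and the lowest of Pdk2. No treated library reached the freshly isolated range, as for every listed gene.

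Transcripts of the HIF subunits were lower in PH-CM. Epas1, the alpha subunit known from endothelium, had 1333, 1495 and 1458 normalized counts in freshly isolated ARVM and 629.9, 707 and 636 in PH-CM (log2 fold change −1.12, SE 0.08, adjusted p = 8.39e-06 from limma). Hif1a had 1799, 1608 and 1803 against 1451, 1506 and 1535, so that the groups lay close together (log2 fold change −0.21, SE 0.07, adjusted p = 0.0162 from limma). The call on Hif1a was lost without freshly isolated ARVM con6 (adjusted p = 0.0615) or PH-CM ARVM ha2 (0.0522). Arnt fell from 799 ± 8.71 to 627 ± 40.6 (SD, n = 3). These are transcript levels, whereas HIF is regulated largely through the stability of the alpha proteins, which was not measured here.

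The 6 listed genes classed here as other HIF targets were all higher, against 53.9% of all listed genes. This holds for that class only, which leaves out the glycolytic genes and the kinases. HIF raises many glycolytic genes too, and of the 18 listed glycolytic enzymes 7 were higher and 11 lower. Pdk1, also a HIF target, was lower (log2 fold change −2.09). The longer list of HIF targets below had 19 genes higher and 11 lower. Stc2, a secreted glycoprotein, had 76.0, 119.97 and 88.8 normalized counts in freshly isolated ARVM and 1000.5, 1482 and 1267 in PH-CM, a 13.2-fold rise (log2 fold change 3.71, SE 0.21). Adm, the precursor of the vasodilator adrenomedullin, had 601, 603 and 567 against 1248, 1606 and 1357 (log2 fold change 1.24, SE 0.10). Both were highest in PH-CM ARVM ha209. Ddit4, an inhibitor of mTORC1 signaling, had 241, 155 and 194 against 373, 401 and 418 (log2 fold change 1.03, SE 0.18). Ankrd37, an ankyrin repeat protein, had 77.5, 38.6 and 55.8 against 107, 104 and 124 (log2 fold change 1.004, SE 0.30). For both genes the lowest PH-CM library lay above the highest freshly isolated one, a separation that every listed gene shares. Ndrg1, a stress-responsive cytoplasmic protein, rose from 536 ± 49.9 to 1047 ± 11.3 and Bnip3l, a mitophagy receptor, from 1012 ± 105 to 1489 ± 179.8 (SD, n = 3).

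Within the PH-CM group the genes varied together. PH-CM ARVM ha209 had the highest of the 3 values for 20 of the 33 genes (60.6%), against 32.0% of all 7052 listed genes, and for 13 of the 18 glycolytic enzymes (72.2%). PH-CM ARVM ha211 was the lowest for 11 of the 18 (61.1%), against 29.4% of all genes. The sum over the 18 enzymes was 252700.0, 295727 and 250489 normalized counts in PH-CM ARVM ha2, ha209 and ha211. After rescaling by the median of ratios PH-CM ARVM ha209 was the highest for 21 of the 33. These counts were made after the values had been seen and are a description of single libraries. The same library had the lowest summed fibroblast and leukocyte markers, 87102 and 7617, of the PH-CM group, and the part of this difference was not tested.

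In Cfib the deposited values are scaled by gene length, so levels may also be set side by side between genes. PH Cfib had lower values for 12 of the 15 listed genes and higher values for 2, ADM and PDK4, at an adjusted p under 0.05 (limma over 2115 genes), and NDRG1 did not pass. Among all listed genes 39.4% were called lower and 58.2% higher. The median log2 fold change was −0.88 for the 15 genes and 0.33 for all listed genes. All 6 listed glycolytic enzymes, the glucose transporter, the listed regulator of phosphofructokinase and the prolyl hydroxylase EGLN3 were among the lower ones. Rescaling by the median of ratios moved the median of all listed genes by −0.27 and their split from 1230 higher and 833 lower to 840 and 869, and it left the direction of 14 of the 15 genes as it was.

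Highest in level were ALDOA and PGAM1, the aldolase and the phosphoglycerate mutase of most tissues. ALDOA had length-scaled values of 1047, 1131 and 1333 in CO Cfib 1, 2 and 3 and 584, 654 and 659.98 in PH Cfib (log2 fold change −0.88, SE 0.12). PGAM1 had 630.5, 869 and 904 against 276, 314 and 332, a 2.61-fold fall (log2 fold change −1.37, SE 0.16). ALDOC lay far below ALDOA, at 43.4, 45.0 and 58.9 in CO and 23.0, 24.2 and 25.8 in PH (log2 fold change −0.97, SE 0.12). Both aldolases fell by similar amounts, and their log2 ratio differed by −0.09 between groups (p = 0.2, exact permutation test). PFKL had 68.9, 102 and 80.8 against 37.9, 41.5 and 41.0 (log2 fold change −1.03, SE 0.14). GPI fell from 454 ± 84.0 to 251 ± 13.8 and HK1 from 153 ± 21.5 to 93.6 ± 12.6 (SD, n = 3). The summed value of the 6 enzymes fell from 2712 ± 278 to 1348 ± 98.4, by 2.01-fold (p = 0.1, exact permutation test, the smallest possible). Groups do not overlap for any gene of the table, and all 6 enzymes were lower. Their sum therefore had to separate, and this p was fixed in advance.

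Transcripts of SLC2A1, PFKFB3 and PDK1 were lower in PH Cfib as well, and glucose uptake itself was not measured. SLC2A10, a further transporter named below, was higher (log2 fold change 1.54). SLC2A1, the transporter of basal glucose uptake, had 30.6, 53.7 and 34.8 in CO and 7.68, 8.89 and 8.08 in PH. CO libraries were widely spread, with a coefficient of variation of 30.9%, yet the lowest was well above the highest PH value. PFKFB3 had 6.09, 9.42 and 6.32 against 2.38, 2.86 and 2.71 (log2 fold change −1.16, SE 0.16). PDK1 had 15.7, 20.9 and 17.2 against 10.04, 9.97 and 9.63 (log2 fold change −0.79, SE 0.11). PDK4 went the other way at very low values, 0.201, 0.438 and 0.256 in CO and 1.67, 1.09 and 1.45 in PH (log2 fold change 0.89 with a pseudocount of 1, SE 0.12, adjusted p = 0.000576 from limma). The log2 ratio of PDK4 to PDK1 differed by 1.68 (p = 0.1, exact permutation test, and 0.15 after Benjamini-Hochberg adjustment over 3 pairs). Both genes are separated between groups by selection and went opposite ways, so this p was fixed in advance.

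**Figure D4:**
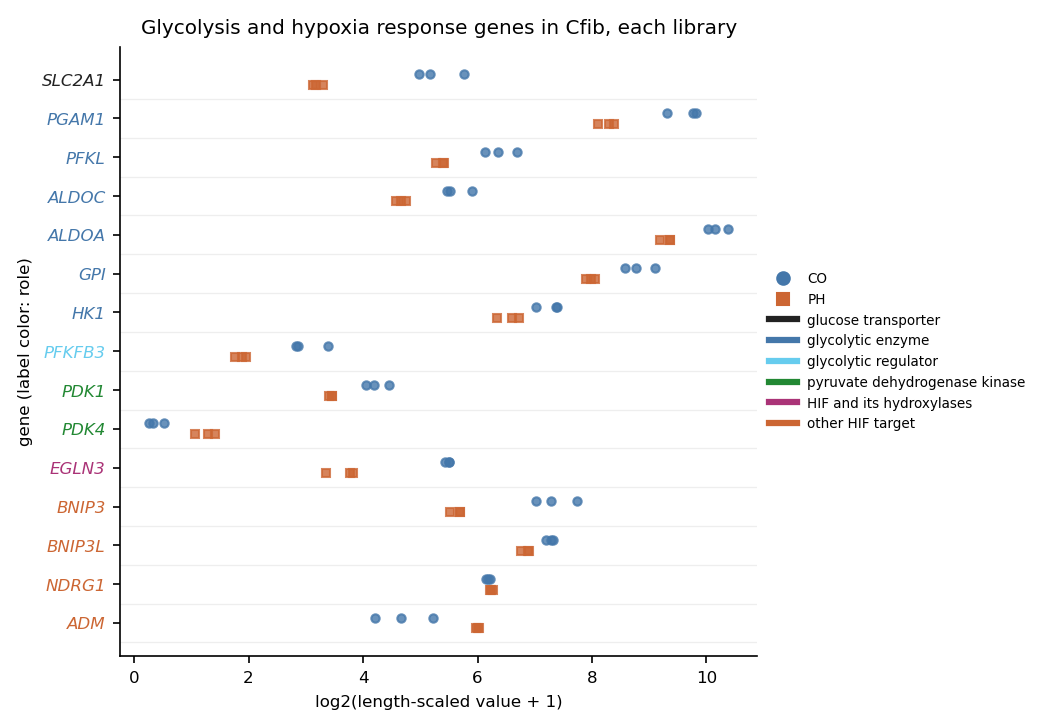
Level of each of the 15 listed genes in every Cfib library, as log2(length-scaled value + 1) on the horizontal axis; circles are the 3 CO and squares the 3 PH libraries, and label color gives the role. PH libraries lie left of CO libraries for 12 genes and right of them for ADM and PDK4, and NDRG1 hardly differs.

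Among HIF feedback and target genes, EGLN3 had 44.1, 42.4 and 44.3 in CO Cfib and 9.20, 13.1 and 12.6 in PH Cfib, a 3.75-fold fall with little spread among CO libraries. BNIP3, a mitophagy receptor, had 128, 212 and 154 against 44.7, 51.0 and 50.8. Its paralog BNIP3L had 145, 156 and 159 against 108, 118 and 116, a smaller fall (log2 fold change −0.42, SE 0.07). The log2 ratio of BNIP3L to BNIP3 was 1.28 higher in PH (p = 0.1, exact permutation test; 0.15 after Benjamini-Hochberg adjustment). ADM rose from 24.4, 17.6 and 36.3 to 61.8, 64.3 and 63.4, a log2 fold change of 1.30 (SE 0.23, adjusted p = 0.00201 from limma). CO libraries differed among themselves, whereas the 3 PH libraries, from 3 animals by the paper, agreed closely. The calls on ADM and GPI were lost where the PH libraries were averaged into 1 sample, which leaves no spread in that group. The log2 fold changes of ADM and GPI were 1.30 and −0.84 there as well. NDRG1 had 73.0, 70.3 and 71.3 against 76.2, 74.4 and 73.5 (log2 fold change 0.06, SE 0.05, adjusted p = 0.262 from limma), and it was lower after rescaling by the median of ratios (−0.22, adjusted p = 0.00555).

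Single Cfib libraries also stood together over these genes. PH Cfib 1 was the lowest PH library for 12 of the 15 (80.0%), against 35.6% of all listed genes, and for all 6 enzymes. CO Cfib 1 was the lowest CO library for 10 of the 15 (66.7%), against 25.5% of all listed genes. These counts were also made after the values had been seen. Cardiomyocyte and erythroid markers were not in the Cfib table. Listed markers were 4 of 10 for fibroblasts, all higher in PH with a sum of 1908 to 2579 in CO and 6105 to 6409 in PH, 4 of 8 for smooth muscle (3 higher and 1 lower, sums of 94.1 to 131 and 215 to 228), 1 of 8 for endothelium (higher) and 4 of 10 for leukocytes (3 higher and 1 lower, sums of 8.01 to 11.0 and 8.69 to 9.75). Of the leukocyte markers CD14 fell from 7.12 to 2.01, while TYROBP went from 0.207 to 1.05 and C1QA from 0 in every CO library to 2.44. Their part in the changes was not tested.

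The 11 genes listed in both tables were set side by side, each with its own test. Gpi, Aldoa, Pfkfb3 and Pdk1 were lower in both experiments. Pfkl, Aldoc, Pgam1 and Bnip3l were lower in PH Cfib and higher in PH-CM ARVM, with Aldoc at −0.97 and 4.38 on the log2 scale and Pgam1 at −1.37 and 0.81. Adm was higher in both, at 1.30 and 1.24. Ndrg1 was higher in ARVM (0.97) and not called in Cfib. Pdk4 was higher in PH Cfib (0.89) and lower in PH-CM ARVM (−2.02). The tables differ in species, unit and control, and no test compared them.

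**Figure D5:**
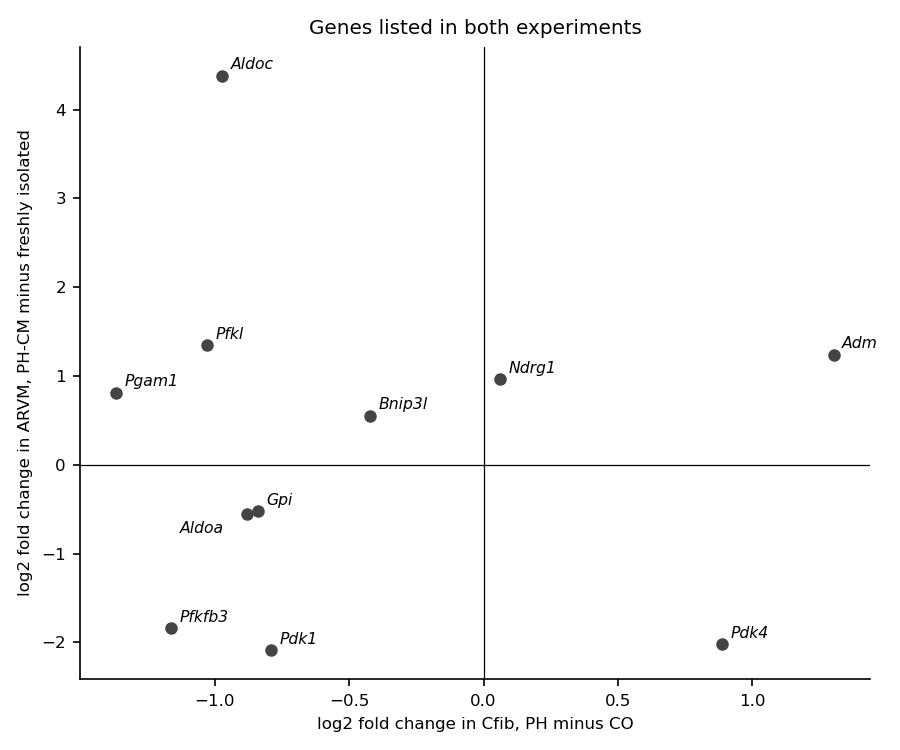
Log2 fold change of the 11 genes listed in both tables, PH against CO Cfib on the horizontal and PH-CM against freshly isolated ARVM on the vertical axis. Genes spread over all 4 quadrants, with Aldoc at −0.97 and 4.38 and Pdk4 at 0.89 and −2.02.

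Surrounding pathways were read from 8 gene lists of 125 symbols, of which the ARVM table held 79, with 38 called higher and 40 lower, and the Cfib table held 32, with 14 higher and 18 lower. These counts stand beside 53.9% higher and 43.7% lower over all listed genes in ARVM and 58.2% and 39.4% in Cfib, and none of the lists was tested against them. In ARVM the pentose phosphate pathway, which branches from glycolysis to make NADPH and ribose, had 5 of 6 listed genes higher and 1 lower. Among them Tkt, transketolase, went from 2062 to 5780.2 normalized counts (log2 fold change 1.49, SE 0.08) and Pgd from 2591 to 6388 (1.30). The list of pyruvate entry to mitochondria had 8 of 9 lower and 1 higher. Both subunits of the mitochondrial pyruvate carrier fell, Mpc1 by 5.07-fold and Mpc2 by 6.52-fold, while Pdk3 rose from 38.6 to 179.7.

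Glycogen genes were lower in 10 of 12 cases and higher in 2. Pygm, the muscle glycogen phosphorylase, fell from 12940.3 to 3464 normalized counts, and Phkg1, a subunit of its activating kinase, from 164 to 31.3. Pygl, the liver phosphorylase, rose from 19.5 to 556 (log2 fold change 4.94, SE 0.43). The brain form Pygb, named here for comparison after its values were seen, fell from 7516 to 4027. Of 6 listed glucose and lactate transporters 4 were higher and 2 lower. Slc2a4, the insulin-responsive glucose transporter of muscle, fell 21.2-fold from 4554 to 214, Slc2a10 went from 0, 4.28 and 0 to 89.2, 45.7 and 94.8, and Slc16a7, a monocarboxylate transporter, from a mean of 4.42 to 40.2.

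The other glycolytic and glycerol enzymes split into 4 higher and 5 lower, with Hk3, the hexokinase of white blood cells, at 0, 18.2 and 17.6 against 149, 101 and 259. Ldhd, which oxidizes D-lactate, fell from 1542 to 394 and Galm, aldose mutarotase, rose from 266 to 595. Of 3 listed gluconeogenic genes Pck2 (305 and 1919) and G6pc3 (819 and 1180.3) were higher and Fbp2 was not called (adjusted p = 0.0559 from limma). Genes that control HIF were lower in 3 of 4 cases, Egln2 and Siah2 among them (log2 fold changes −0.70 and −0.62), and Arnt2, a neuronal partner of HIF, was higher (3.57). A longer list of HIF targets had 30 of 45 symbols listed, 19 higher and 11 lower, not far from the split of all listed genes. Its largest changes were in collagen-modifying enzymes: Lox went from 0, 0 and 8.26 to 423, 336 and 528, Plod2 from 72.4 to 3563 and Loxl2 from 85.9 to 1747.

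In Cfib the largest changes of these lists included genes of lactate and fructose bisphosphate handling and LOX. SLC16A3, which exports lactate and is a HIF target, had 25.7, 44.3 and 38.2 in CO and 1.88, 2.52 and 2.92 in PH, a 14.8-fold fall (log2 fold change −3.41, SE 0.22), and SLC16A7 fell 10.7-fold. In ARVM Slc16a3 rose from 76.1 to 748 (log2 fold change 3.26, SE 0.22). SLC2A10 rose in PH Cfib (log2 fold change 1.54). FBP1 and FBP2, which reverse the phosphofructokinase step, fell by 5.18-fold and 8.75-fold, and PC, pyruvate carboxylase, rose by 2.17-fold. PDK3 fell from 47.7 to 20.1 and DLAT from 13.4 to 10.5, TKT from 342 to 237 and GALM from 25.7 to 15.6. Smaller changes were found for GPD1L (0.85) and for the glycogen genes PGM5 (−0.93), GYG1 (0.57) and PYGB (0.17). VHL, CITED2 and ARNT2 of the HIF control list were higher (0.48, 0.71 and 0.71). Of the longer HIF target list 12 symbols were listed, 5 higher and 7 lower, with LOX at 2.47, AK4, an adenylate kinase of mitochondria, at −1.74 and ANGPTL4, a secreted lipase inhibitor, at 1.47 on the log2 scale.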

How the data were processed

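Per the methods and labels, the authors prepared ribosome-depleted libraries with an Illumina TruSeq kit, aligned reads with HISAT2 and StringTie to bosTau8 and rn6, normalized with DESeq2 and kept genes selected for a difference. For ARVM the deposited signal is a DESeq2-normalized count: divided by what 1 read is worth in its library, 100% of the values were whole within 0.01 read. Deposited Cfib values are a length-scaled signal whose exact unit was not settled. No bovine sequence was used here.

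In R 4.3.3, limma 3.58.1 (trended eBayes) was fitted to log2(value + 1) of 3 against 3 libraries, each table on its own, with Benjamini-Hochberg adjustment over all its genes and a threshold of 0.05. The added 1 shrinks fold changes of low genes, and selection makes the adjusted p-values optimistic. Where a freshly isolated library was at 0, however, the log2 fold change was larger than with edgeR. It was 5.51 against 4.165 for Slc2a3 and 3.06 against 2.18 for Pfkfb4. Log2 ratios and sums were tested by exact permutation over 6 libraries. Recovered reads were tested with edgeR 4.0.16 and DESeq2 1.42.0. The main limma fits and the edgeR and DESeq2 fits were tested on simulated data in which most genes did not change, unlike these selected genes. Other settings and the permutation tests were not simulated. The 95% intervals are those of limma and rest on the spread between libraries, and the floor of 3 reads covers counting error only.

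Every listed gene of the 38 was named. Values per library were given for called genes with an absolute log2 fold change of at least 1 and for pairs of related genes, and up to 3 called genes with the largest change were named per pathway list. Some genes that this rule names are not reported here. SLC16A3 was added for ARVM after its values were seen. Genes and lists were chosen with earlier results of these data known. Python 3.11.15, numpy 2.4.6, scipy 1.17.1 and pandas 2.3.3 were used.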

Additional observations from a re-analysis of the deposited data

How the results depend on the processing

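Pseudocounts of 0.1 and 10, a minimum mean (5 for Cfib, 50 for ARVM), omission of single libraries, eBayes with no trend, rescaling by the median of ratios, edgeR and DESeq2 were tried. Averaging the PH Cfib libraries and DESeq2 and eBayes without a trend for single genes were added after seeing the data. Of the 15 ARVM genes called higher, 9 had a log2 fold change of at least 1, and of the 18 lower ones 10. In Cfib 1 of the 2 genes called higher and 6 of the 12 lower ones passed that limit. With a minimum mean, and with the PH Cfib libraries averaged, 1 Cfib gene was called higher, PDK4 being filtered out in the first case and ADM losing its call in the second. With libraries left out, 13 to 15 ARVM genes were higher and 16 to 18 lower, and Cfib stayed at 2 and 12. Reversals were NDRG1 in Cfib (−0.22 with the median of ratios), the log2 ratio of ALDOC to ALDOA (0.10 with a pseudocount of 10, since ALDOC is low) and Pdk4 to Pdk1 in ARVM, which ranged from −0.10 without freshly isolated ARVM con4 to 0.21 without PH-CM ARVM ha211, and was −0.08 without PH-CM ARVM ha209. The log2 ratio of PDK4 to PDK1 in Cfib was 2.79 with a pseudocount of 0.1 and 0.63 with 10, because PDK4 values are near 1 or below. Whether Cfib replicate numbers pair the libraries is not known. Correlations of deviations between libraries of the same number were 0.258, 0.0312 and 0.259, which cannot settle it. With a replicate block 2 genes were higher and 12 lower. No paired analysis was possible for ARVM because its groups share no numbers. Cfib depth is unknown, which limits statements on low genes such as PDK4.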
